A study of Mus musculus with 14 samples.

Results

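The genes described are those of the voltage-gated, calcium-activated, inwardly rectifying and leak potassium channels, the voltage-gated sodium and calcium channels, and the AMPA, NMDA and GABA-A receptors. They were chosen by symbol alone, as every gene of the count table whose symbol starts with Kcn, Scn and a digit, Cacn, Gria, Grin and a digit, or Gabr, which gave 168 of 24064 genes. All 168 enter the counts below. The set is named for neurons, where most of these proteins carry or gate ionic currents, but several members are known from heart, muscle, epithelia or glia.

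RNA was sequenced from single mouse oocytes to ask how loss of the histone H3 lysine demethylase KDM1A (LSD1) from the female germline changes the oocyte transcript pool. There were 5 control and 5 mutant oocytes. Of the controls, 4 were wt/wt oocytes of the C57BL/6J strain (wt1, wt3, wt4 and wt5) and 1 was an f/f oocyte (C3), homozygous for a conditional Kdm1a allele whose first exon is flanked by loxP sites, from mice of mixed B6;129 strain. The 5 mutants, which were labelled mko/mko and are numbered D1 to D4 and D7 here, came from mice of the same mixed strain with the same homozygous conditional allele plus a cre transgene driven by the Zp3 promoter, which is active in the growing oocyte and not in the follicle cells around it. No treatment differed between the groups, the labels give no age for the females, and nothing says which oocytes came from 1 female, so the p-values measure the spread between these oocytes only. Apart from the single f/f oocyte, strain and genotype cannot be told apart. The wt/wt libraries also carry a different style of name from the others.

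KDM1A acts with the scaffold protein CoREST (RCOR) and histone deacetylases. Outside the nervous system, the zinc finger repressor REST recruits this complex to RE1 elements near neuronal genes, among them channel and receptor subunits, and keeps them off. In oocytes, ion channels set the membrane potential, and the T-type calcium channel pore subunit Cacna1h and the cation channel Trpm7 are known to carry calcium into the mouse egg.

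Total counts per oocyte were 1375187 to 1892015 in wt/wt, 6928548 in f/f and 2016701 to 6926076 in mutants, so that a floor of 3 counts was worth 0.455 to 1.82 CPM (counts scaled to a common library size adjusted by TMM). Such floors cover counting error only. Kdm1a, the targeted gene, had 70, 43, 85, 27 and 669 counts in wt1, wt3, wt4, wt5 and C3, and 0, 2, 4, 3 and 10 in the mutants D1, D2, D3, D4 and D7. It was lower in all 5 mutants than in every control (log2 fold change, mutant over control, -5.02, SE 0.86, adjusted p = 0.0011, edgeR quasi-likelihood test). The 12 fixed oocyte markers, of which Figla alone had 1 count or fewer in each wt/wt oocyte, summed to 11257 to 29122 CPM in wt/wt, 47504 in f/f and 50647 to 105213 in mutants, and 8 of the 12 were called higher in mutants, where 14.7% of all genes tested were. Of 16 cumulus and granulosa cell markers, 12 had 3 counts or fewer in each control, 8 had no count in any oocyte (Fshr, Amh and Inha among them), and the summed level was 25.1 to 68.5 CPM in wt/wt, 64.5 in f/f and 83.9 to 150 in mutants. That sum was mostly Cyp19a1, which was called higher (37.7 CPM in controls, 105 in mutants). Mean levels of Nr5a2 (8.12 against 2.7), Has2 (2.07 against 0.122) and Gja1 (1.65 against 0.0607) were lower in mutants, Nr5a2 without a call and the others untested. Star, Cyp11a1, Ptgs2 and Hsd3b1, at 4 counts or fewer in every oocyte, had slightly higher means in mutants. Of 12 neuronal markers, 4 had no count in any oocyte (Snap25, Stmn2, Nefl and Nefm). The neuronal sum, 446 to 606 CPM in wt/wt, 1333 in f/f and 902 to 2723 in mutants, was mostly the tubulin gene Tubb3. Of 6 glial markers, 4 were silent in all 10 oocytes and Gfap was at 0 throughout, while the myelin gene Mbp was called higher, at 8.19 ± 2.54 CPM in controls and 67.3 ± 27.8 CPM in mutants (log2 fold change 3.04, SE 0.45, adjusted p = 0.000548). The glial sum was 22.4 to 88.7 CPM in mutants, against 6.93 to 13.8 in wt/wt and 7.31 in f/f. The part of these other-cell markers in the results below was not tested.

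Most channel and receptor genes were silent. A gene was called silent in a group when none of its oocytes had more than 3 counts, and detected when at least 3 of the 5 oocytes had more than 3 counts. By this rule 129 of the 168 genes (76.8%) were silent in controls, where 56.6% of all 24064 genes were. In mutants 126 (75%) were silent, against 52.2% of all genes. The number silent in all 10 oocytes was 116 (69%), against 48.9% of all genes, and 87 (51.8%) had no count in any oocyte, against 35.9%. Only 13 members were detected in both groups. These shares describe the family and carry no test, and at these depths a silent gene was not detectable above 3 counts rather than shown to be absent.

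The silent majority held the textbook targets of REST. The AMPA receptor subunit Gria2 (chr3:80681450-80802835, minus strand, GRCm38) and the obligatory NMDA receptor subunit Grin1 (chr2:25291181-25319187, minus strand) had 0 counts in each of the 10 oocytes, control and mutant. Zero of 6926076 counts in D4, the deepest mutant, allows a level of up to 0.455 CPM. The sodium channel gene Scn2a1 (chr2:65620771-65767447, plus strand) had 1 count in wt1, 1 in C3, 1 in D3 and 3 in D4, and none in the other 6 oocytes. Its level therefore reached at most 0.552 CPM, in a control oocyte, and it was at the floor in both groups.

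Promoter windows, taken from RefSeq on GRCm38.p6 as 300 bases across each start site, were held for 123 of the 168 members, as 163 windows. They were searched on both strands for the left and right parts of the RE1 element, TTCAGCACC and GGACAGCGC, with no mismatch. The left part stood in 1 member window (0.613%) and in 0.371% of all 32851 windows, and the right part in 2 (1.23%) and in 0.405% of all windows. The 3 members with a match were Gria2, the voltage-gated potassium channel gene Kcnh6 and the inward rectifier gene Kcnj4, and all 3 had 0 counts in every control and mutant oocyte. Their windows are shown because they are the members with REST element letters beside the start site. They are written 5′ to 3′ on the gene's strand, with the matched part in capitals. In Gria2 (chr3:80802786-80803085, minus strand) the right part lies on the opposite strand, so the capitals are its reverse complement. Kcnh6 is at chr11:106007898-106008197, plus strand, and Kcnj4 at chr15:79505192-79505491, minus strand.
Gria2: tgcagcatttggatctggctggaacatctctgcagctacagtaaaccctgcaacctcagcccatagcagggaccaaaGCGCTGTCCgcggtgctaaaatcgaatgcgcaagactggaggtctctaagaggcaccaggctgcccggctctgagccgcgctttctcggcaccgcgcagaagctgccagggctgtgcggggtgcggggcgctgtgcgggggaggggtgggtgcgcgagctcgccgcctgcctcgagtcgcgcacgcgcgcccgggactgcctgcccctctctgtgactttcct
Kcnh6: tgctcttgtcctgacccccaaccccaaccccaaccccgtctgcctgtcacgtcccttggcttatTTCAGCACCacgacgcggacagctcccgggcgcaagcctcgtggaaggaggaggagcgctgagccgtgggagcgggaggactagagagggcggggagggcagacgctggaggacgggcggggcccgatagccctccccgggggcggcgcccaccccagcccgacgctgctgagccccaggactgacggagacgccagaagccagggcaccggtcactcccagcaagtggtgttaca
Kcnj4: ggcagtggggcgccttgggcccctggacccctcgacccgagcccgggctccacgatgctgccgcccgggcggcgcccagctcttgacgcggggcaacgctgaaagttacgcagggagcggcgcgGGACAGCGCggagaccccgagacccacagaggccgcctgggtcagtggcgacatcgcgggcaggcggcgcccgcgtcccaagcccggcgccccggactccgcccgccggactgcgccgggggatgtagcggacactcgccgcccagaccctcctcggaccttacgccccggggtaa
The matches began at positions -173, -186 and -126 from the start site, in that order. A match is a description of letters and was not tested as a binding site, and members without a match were not searched beyond these 300 bases.

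Silence was spread over every family. Of 40 voltage-gated potassium channel subunits, 35 were silent in controls and 31 in all 10 oocytes. Inward rectifiers were the quietest large family, with 14 of 15 silent in each group, Kcnj13 (3 and 7 counts in wt1 and wt3, 0 elsewhere) being the exception in controls and Kcnj15 (15 counts in D4, 3 or fewer elsewhere) in mutants. Of 10 sodium channel pore-forming subunits, 7 were silent in all 10 oocytes, and the other 3 were Scn3a, Scn8a and Scn10a. Calcium channels had 7 of 10 pore subunits and 12 of 16 auxiliary subunits silent in controls.

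Among receptors, 3 of 4 AMPA subunits had no count in any oocyte, and the remaining subunit, Gria4, had 2, 3, 4, 2 and 18 counts in the controls (wt1, wt3, wt4, wt5, C3, an order kept below) and 6, 9, 16, 33 and 5 in the mutants (D1, D2, D3, D4, D7). Its levels overlapped, and the difference did not pass the test (log2 fold change 1.23, SE 0.65, adjusted p = 0.174). Of 7 NMDA subunits, Grin1, Grin2a, Grin2c and Grin2d had no count in any oocyte. Grin2b had 0 in every control and 0, 5, 0, 3 and 4 in mutants, and Grin3b had a single count in the controls and 8, 4, 0, 3 and 2 in mutants, too few oocytes for either to count as detected. Neither passed the filter on low counts, and without it Grin2b was called higher (adjusted p = 0.0387, edgeR). The mutant mean of Grin2b, 1.1 CPM, lay under the mean control floor of 1.24 CPM, so no size of change is given. The exons of Grin3b overlap Tmem259 on the opposite strand by 1059 bases. Of 19 GABA-A receptor subunits, 12 were silent in controls and 15 in mutants, and Gabra3 and Gabrp were detected in both groups without a difference that passed the test (log2 fold change 1.20, adjusted p = 0.181, and 0.64, adjusted p = 0.548).

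**Figure D1:**
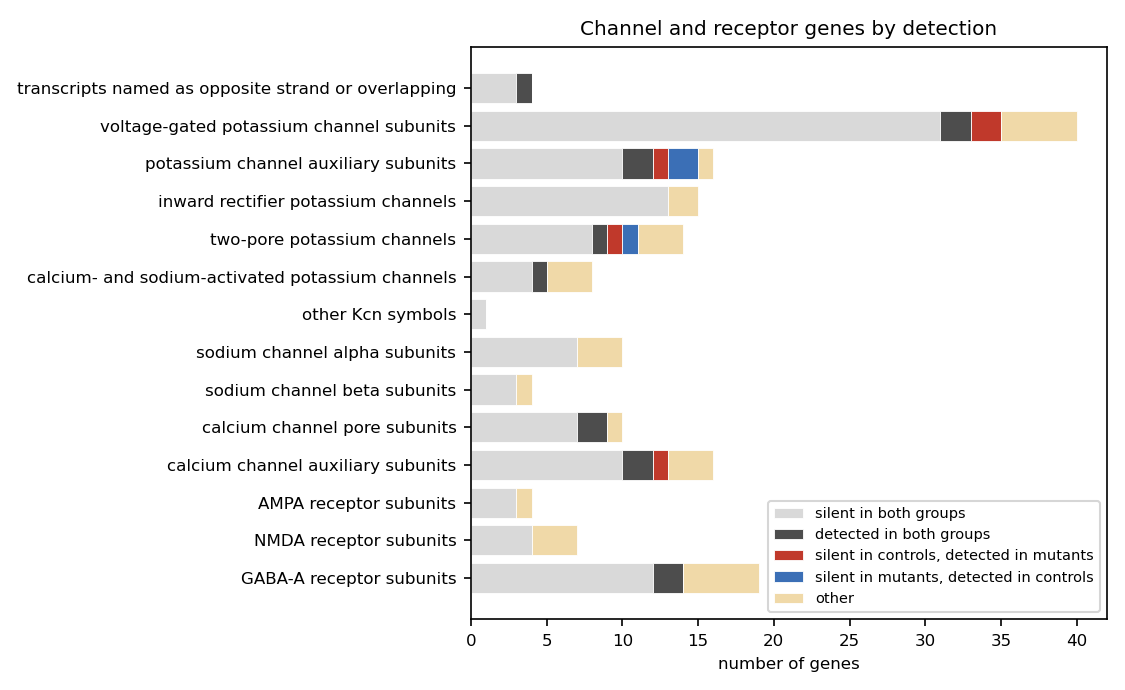
Number of channel and receptor genes (horizontal axis) in each family (vertical axis), divided by whether they were silent (no oocyte above 3 counts) or detected (at least 3 of 5 oocytes above 3 counts) in control and in mutant oocytes, with all remaining combinations as other. The grey bars, silent in both groups, hold 116 of the 168 genes, and the red and blue bars hold 5 and 3.

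The potassium channel gene Kcnh1 dominated what was left. In wt/wt oocytes the 5 members of highest mean level per kb of exon were Kcnh1 (an ether-a-go-go voltage-gated potassium channel), Kcnq1 (a delayed rectifier channel of heart and epithelia), Kcnk13 (a leak potassium channel), Kcnmb2 (an auxiliary subunit of the large-conductance calcium-activated channel) and Kcnip4 (a calcium-binding protein of A-type potassium channels). Their mean levels in CPM per kb (± SD, n = 4) were 56.9 ± 8.67, 13.4 ± 3.85, 8.45 ± 4.87, 2.40 ± 1.18 and 2.19 ± 2.46. Kcnh1 stood above all others in every wt/wt oocyte. Kcnq1 and Kcnk13, and likewise Kcnmb2 and Kcnip4, were within their spread of each other, and the next 7 members lay between 0.656 and 1.01. Counting at most 3 kb of exon, since the amplification favours 3′ ends, kept 4 of these 5 members, with Cacna2d3 in place of Kcnmb2.

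**Figure D2:**
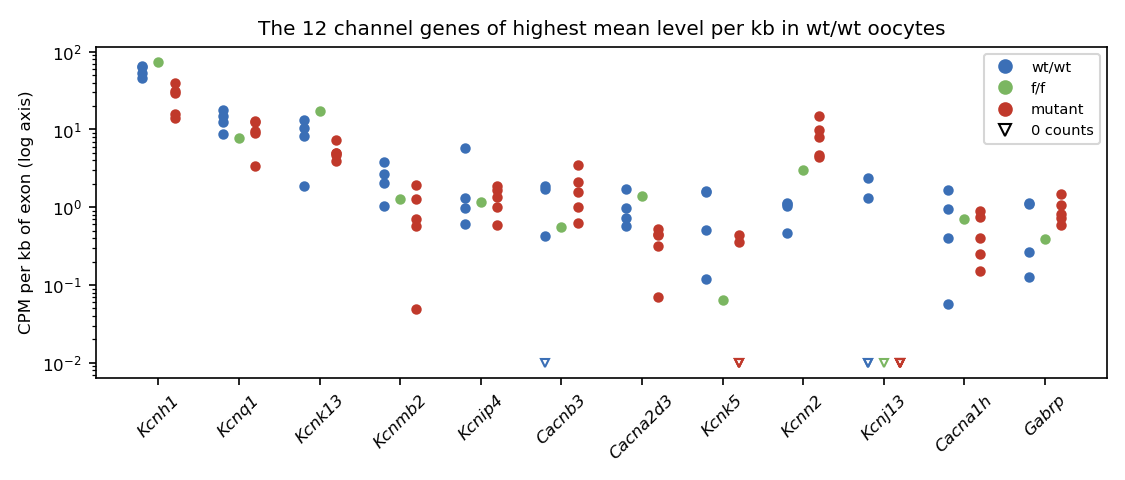
Level in CPM per kb of exon (vertical log axis) of the 12 members with the highest mean level in wt/wt oocytes (horizontal axis, in that order), 1 point per oocyte, with open triangles at the lower edge for oocytes with 0 counts. Kcnh1 leads in wt/wt and f/f oocytes, and its 5 mutant points lie below all its control points, while those of Kcnn2 lie above.

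Kcnh1 (chr1:192190774-192510159, plus strand) was called lower in mutants. Its counts were 713, 1105, 1132, 757 and 2437 in controls and 188, 357, 635, 758 and 590 in mutants, or 394, 476, 462, 339 and 540 CPM against 103, 217, 226, 115 and 293 CPM. Every mutant lay below every control, under TMM and by library totals alike. The place of the f/f oocyte, which shares the mutants' strain, depended on the scaling: it was the highest of the 10 under TMM, and by library totals it was the lowest control (352 CPM, wt/wt 462 to 635, mutants 80.1 to 276). Its 2 libraries also differed, with 679 and 1758 counts from totals of 3410258 and 3518290. The mean fell from 442 ± 77.6 to 191 ± 80.5 CPM (SD, n = 5 each; log2 fold change -1.21, SE 0.35, adjusted p = 0.0204, edgeR). Kcnh1 made up 66.8 to 71.1% of all channel and receptor counts in wt/wt and 72.4% in f/f, but 26.9 to 57.1% in mutants. The summed level of the 168 members was 507 to 669 CPM in wt/wt, 746 in f/f and 382 to 514 in mutants under TMM. By library totals it was 692 to 893, 486 and 298 to 484, so that the f/f oocyte lay below every wt/wt oocyte. Without D1 the adjusted p of Kcnh1 was 0.0532.

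The 4 other members of highest level did not pass the test. Kcnq1 (chr7:143106362-143427042, plus strand) had 64, 169, 148, 114 and 143 counts in controls and 67, 86, 109, 91 and 103 in mutants (log2 fold change -0.39, SE 0.40, adjusted p = 0.503). Kcnk13 (chr12:99964499-100062682, plus strand) had 75, 76, 62, 13 and 246 against 28, 37, 35, 97 and 31 (-1.0, SE 0.48, adjusted p = 0.136). Its control levels spanned 5.82 CPM in wt5 to 54.5 in C3 and its mutant levels only 12.4 to 22.5. Kcnmb2 (chr3:31902507-32200180, plus strand) had 15, 15, 8, 27 and 18 counts against 4, 3, 17, 1 and 8 (-1.27, SE 0.74, adjusted p = 0.215). Kcnip4 (chr5:48389502-49524907, minus strand) had 4, 11, 52, 8 and 19 against 9, 6, 19, 14 and 12 (-0.63, SE 0.66, adjusted p = 0.506). The groups overlapped for all 4, and for Kcnip4 the control mean rested on the 52 counts of wt4. Kcnq1ot1, the noncoding transcript that overlaps Kcnq1 by 121 exonic bases, had 11, 5, 12, 13 and 25 counts against 5, 8, 17, 58 and 67 (1.18, SE 0.65, adjusted p = 0.189). Whether reads were counted by strand is not given in the sources used here, so reads in the shared bases cannot be told apart.

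Between control and mutant oocytes, 26 of the 168 members passed the filter on low counts, and 6 were called at an adjusted p under 0.05 with a log2 fold change of at least 1 in size. Of the 26, 4 were called higher in mutants (15.4%), where 14.7% of all 9198 genes tested were, and 2 were called lower (7.69%), where 11.2% of all genes were. The shares of the members were thus near the background. The filter keeps genes by total count over all oocytes. Scn3a, Kcnh2 and Cacnb4 passed it through their mutant counts, and Scn8a mainly through its control counts. These shares, and the median below, thus describe the members that passed and support no direction. An unadjusted p under 0.05 was found for 8 of the 26 (30.8%) and for 39.4% of all genes tested. The median log2 fold change of the 26 was 0.61, with 14 above 0, and that of all genes was 0.17. With library totals in place of TMM the median of all genes was -0.22 and the members split into 3 higher and 3 lower, Cacnb4 losing its call and Cacna2d3 gaining one. Leaving out D1 left 3 calls, Kcnn2, Scn3a and Scn8a.

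The member with the smallest p was Kcnn2 (chromosome 18, plus strand), which encodes a small-conductance calcium-activated potassium channel known for the afterhyperpolarization of neurons. Kcnn2 had 14, 8, 20, 19 and 101 counts in controls and 133, 54, 169, 737 and 71 in mutants, or 7.73, 3.44, 8.16, 8.5 and 22.4 CPM against 72.7, 32.8, 60.1, 112 and 35.3 CPM. Every mutant lay above every control, and the f/f oocyte lay between the wt/wt oocytes and the mutants. The mean rose from 10 ± 7.19 to 62.6 ± 32.3 CPM (SD, n = 5 each; log2 fold change 2.61, SE 0.51, adjusted p = 0.00237, edgeR). The f/f oocyte and 3 mutants are sums of 2 libraries that share an oocyte name, and both libraries of each gave the gene: 31 and 70 counts in C3, 105 and 64 in D3, 342 and 395 in D4, and 28 and 43 in D7. Its exons overlap a pseudogene by 323 bases and an antisense transcript by 284 bases, both on the opposite strand.

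Scn3a (chr2:65457118-65567627, minus strand), a sodium channel pore subunit best known from the embryonic brain, had 3, 0, 4, 0 and 2 counts in controls and 7, 4, 30, 82 and 11 in mutants, or 1.66, 0, 1.63, 0 and 0.443 CPM against 3.83, 2.43, 10.7, 12.4 and 5.47 CPM. It was near the floor in controls and highest in D3 and D4. Each mutant lay above every control under TMM, but by library totals D2 (1.98 CPM) lay below wt1 and wt4 (2.18 and 2.11). The mean rose from 0.746 ± 0.839 to 6.97 ± 4.37 CPM (log2 fold change 3.24, SE 0.87, adjusted p = 0.0134). It passed the filter on low counts through its mutant counts, and without the filter the adjusted p was 0.00748. A single count above 3, the 4 counts of wt4, kept Scn3a from being called silent in controls.

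Its relative Scn8a (chr15:100869858-101045938, plus strand), the sodium channel of nodes of Ranvier in adult neurons, went the other way. Scn8a had 12, 11, 30, 16 and 11 counts in controls and 2, 1, 3, 5 and 6 in mutants, or 6.63, 4.74, 12.2, 7.16 and 2.44 CPM against 1.09, 0.608, 1.07, 0.759 and 2.98 CPM. All wt/wt oocytes lay above all mutants, but the f/f oocyte lay below D7, so the groups overlapped. The mean fell from 6.64 ± 3.64 to 1.30 ± 0.963 CPM (log2 fold change -2.34, SE 0.69, adjusted p = 0.0214), but the adjusted p was 0.0676 without wt4 and 0.0565 with counts thinned to 1 depth. Scn8a passed the filter on low counts mainly through its control counts, and without the filter the adjusted p was 0.0385.

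**Figure D3:**
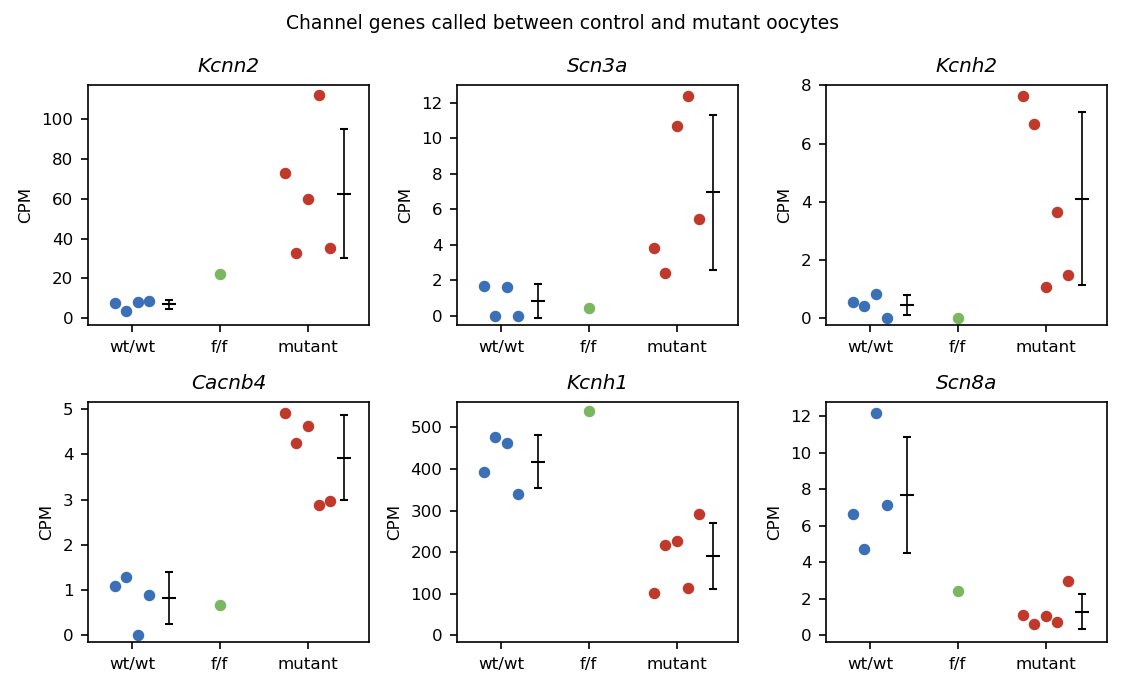
CPM (vertical axis, linear, a different range in each panel) of the 6 called channel genes in 4 wt/wt, 1 f/f and 5 mutant oocytes, 1 point per oocyte in the order given in the text, with bars for the mean ± SD of wt/wt and of mutant oocytes. On this TMM scale the mutant points lie above every control point for Kcnn2, Scn3a, Kcnh2 and Cacnb4, and below every control point for Kcnh1. By library totals 1 mutant point of Scn3a and 1 of Kcnh2 fall among the controls.

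Few members were silent in controls and appeared in mutants. Of the 129 silent in controls, 5 (3.88%) were detected in mutants, namely Kcnh2, Kcnh3, Cacnb4, Kcnip2 and Kcnk7, where 2.44% of all genes silent in controls were. In the opposite direction 3 of the 126 members silent in mutants (2.38%), Kcnip1, Kcnab1 and Kcnk5, were detected in controls, where 1.11% of all such genes were. The mutants had more counts than the wt/wt oocytes. With every oocyte thinned to 1375187 counts, 3 of 134 members (2.24%; all genes 1.9%) switched on, Cacnb4, Kcnh3 and Scn3a, and 1 of 132 (0.758%; all genes 2.04%) switched off, Kcnip1. Kcnh2, Kcnip2 and Kcnk7 were thus not detectable as switched on at the lowest depth.

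Kcnh2 (chr5:24319589-24351604, minus strand) encodes the rapid delayed rectifier potassium channel of heart muscle. It had 1, 1, 2, 0 and 0 counts in controls and 14, 11, 3, 24 and 3 in mutants, or 0.552, 0.431, 0.816, 0 and 0 CPM against 7.65, 6.69, 1.07, 3.64 and 1.49 CPM. D1 and D2 lay above the controls by the most, while D3 and D7 were within the floor of 3 counts. The groups did not overlap under TMM, but by library totals D3 (0.924 CPM) lay below wt4 (1.06). The mean rose from 0.360 ± 0.357 to 4.11 ± 2.98 CPM (log2 fold change 3.45, SE 1.00, adjusted p = 0.0196). Kcnh2 too passed the filter through its mutant counts, and without it the adjusted p was 0.0201. The call was lost without D1 (adjusted p = 0.0557) and with counts thinned to 1 depth (adjusted p = 0.0764).

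Cacnb4 (chr2:52428320-52676831, minus strand), a cytoplasmic beta subunit that carries calcium channel pores to the membrane, had 2, 3, 0, 2 and 3 counts in controls and 9, 7, 13, 19 and 6 in mutants, or 1.10, 1.29, 0, 0.895 and 0.664 CPM against 4.92, 4.25, 4.62, 2.88 and 2.98 CPM. It is the only member silent in every control and above 3 counts in all 5 mutants. The mean rose from 0.791 ± 0.5 to 3.93 ± 0.943 CPM (log2 fold change 2.27, SE 0.78, adjusted p = 0.0409). Cacnb4 passed the filter through its mutant counts, and without the filter the call was lost (adjusted p = 0.0856). The call was close to the threshold: leaving out any 1 control, or D1, D2 or D3, gave an adjusted p of 0.0549 to 0.0879. Its exons overlap a processed transcript on the opposite strand by 1433 bases.

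Kcnh3 (chr15:99224861-99242817, plus strand), a forebrain potassium channel of the same ether-a-go-go family as Kcnh1 and Kcnh2, had 2, 0, 3, 2 and 3 counts in controls and 16, 8, 3, 9 and 8 in mutants. D3 did not exceed the controls, and the difference missed the threshold (log2 fold change 2.28, SE 0.88, adjusted p = 0.0637). Members of that family thus stood side by side in these oocytes, with Kcnh1 abundant and lower in mutants, and Kcnh2 and Kcnh3 at or under the floor in controls.

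Kcnip2 and Kcnk7 had no count in any control. Kcnip2 (chr19:45791839-45816061, minus strand), a calcium sensor that binds the A-type potassium channels, had 8, 7, 1, 13 and 4 counts in mutants, so that each mutant had at least 1 count, and its mean of 2.59 ± 1.71 CPM was at least 2.1-fold higher than the mean control floor of 1.24 CPM. Kcnk7 (chr19:5704367-5707109, plus strand), a member of the leak potassium channel family, had 2, 0, 8, 7 and 6 counts, with none in D2, and its mean of 1.60 ± 1.28 CPM was at least 1.29-fold higher than that floor. Both fell below the filter on low counts and entered a fit only without it, where edgeR gave adjusted p = 0.00394 and 0.0134. Both were picked on these same counts, which set the direction of that fit, so these p-values add no support. Their RefSeq promoter windows on GRCm38.p6 are shown because these are the 2 detected members with no count in any control, with each CG in capitals. Kcnip2 (chr19:45816014-45816313, minus strand) holds 18 CG and is 67% G or C, Kcnk7 (chr19:5704221-5704520, plus strand) holds 10 and is 61% G or C, and the median was 9 over the member windows and 7 over all windows. Neither holds either part of the RE1 element.
Kcnip2: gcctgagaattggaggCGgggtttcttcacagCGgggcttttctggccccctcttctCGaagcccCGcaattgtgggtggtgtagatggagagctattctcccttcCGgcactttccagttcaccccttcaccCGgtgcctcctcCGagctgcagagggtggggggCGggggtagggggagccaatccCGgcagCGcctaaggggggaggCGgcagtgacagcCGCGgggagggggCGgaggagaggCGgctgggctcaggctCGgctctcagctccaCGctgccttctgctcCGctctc
Kcnk7: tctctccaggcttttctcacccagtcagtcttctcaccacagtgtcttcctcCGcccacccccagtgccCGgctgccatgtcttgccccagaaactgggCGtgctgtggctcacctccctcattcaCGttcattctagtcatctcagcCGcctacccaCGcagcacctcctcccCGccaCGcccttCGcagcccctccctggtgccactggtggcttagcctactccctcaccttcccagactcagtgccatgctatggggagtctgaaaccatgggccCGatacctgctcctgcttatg

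The members silent in mutants and detected in controls were auxiliary subunits and a leak channel. Kcnip1 (chr11:33629339-33993152, minus strand), a calcium sensor of the same family as Kcnip2, had 8, 9, 7, 0 and 3 counts in controls and none in any mutant. Its control mean of 2.36 ± 1.95 CPM made it at least 1.82-fold lower in mutants, whose mean floor was 1.30 CPM, and without the filter edgeR gave adjusted p = 0.0059. Kcnip1 too was picked on these counts, which set the direction of that fit. The oocyte wt5 had no count either, so the groups met at 0. Kcnab1 (chr3:65109384-65378223, plus strand), a beta subunit of voltage-gated potassium channels, had 1, 4, 5, 9 and 10 counts against 2, 0, 0, 3 and 0, and overlaps an antisense transcript by 201 exonic bases. Kcnk5 (chr14:20140057-20181809, minus strand), a pH-sensitive leak potassium channel, had 10, 4, 1, 12 and 1 against 0, 2, 0, 0 and 3. Both overlapped between the groups and missed the threshold in the fit without a filter (adjusted p = 0.112 and 0.159).

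**Figure D4:**
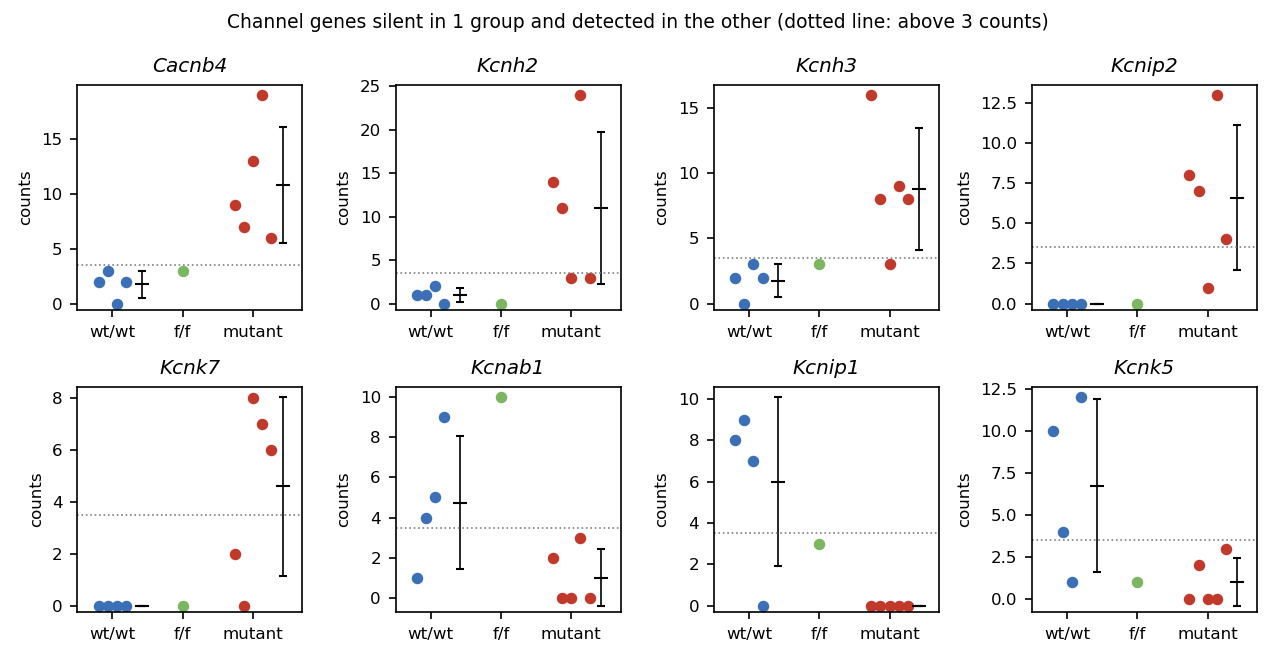
Counts (vertical axis, linear, a different range in each panel) of the 8 members silent in 1 group and detected in the other, 1 point per oocyte, with bars for the mean ± SD of 4 wt/wt and of 5 mutant oocytes and a dotted line between 3 and 4 counts. Kcnip2 and Kcnk7 are at 0 in all 5 controls, and Kcnip1 is at 0 in all 5 mutants.

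The number of members with more than 3 counts did not separate the groups. It was 19, 22, 24 and 20 in the wt/wt oocytes, 23 in f/f and 23, 21, 21, 36 and 23 in the mutants. D4, at 36, stood apart and also had the most counts of the mutants. Thinned to 1 depth the numbers were 19, 16, 18 and 20 in wt/wt, 11 in f/f and 15, 20, 14, 20 and 18 in mutants, and D4 was level with D2 and wt5. Across all genes D4 likewise had the most above 3 counts, 10896, where the other mutants had 7726 to 8195.

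**Figure D5:**
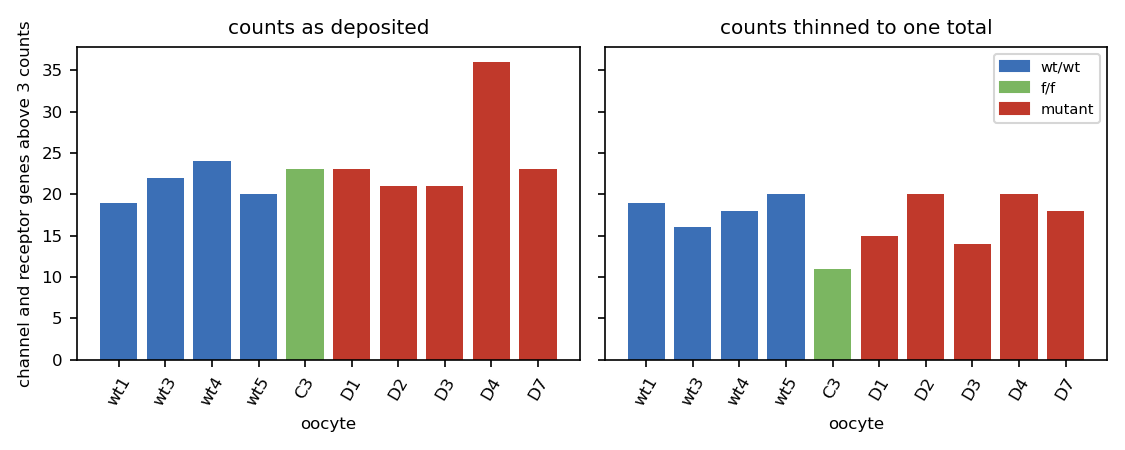
Number of the 168 channel and receptor genes with more than 3 counts (vertical axis, from 0) in each of the 10 oocytes (horizontal axis, coloured by group), with counts as deposited on the left and thinned to 1375187 per oocyte on the right. D4 reaches 36 on the left and 20 on the right, level with D2 and wt5.

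The remaining members were scattered, with more than 3 counts in only 1 or 2 oocytes of a group. Of the members silent in controls, 8 were scattered in mutants (Cacng4, Grin2b, Grin3b, Kcng2, Kcnj15, Kcnmb1, Kcns3 and Scn2b), and in 5 of these, Cacng4, Kcnj15, Kcnmb1, Kcns3 and Scn2b, D4 was the only oocyte of the 10 above 3 counts. Of the members silent in mutants, 7 were scattered in controls, Kcnb2, Kcnj13, Kcnk6, Kcnn3 and Gabrr1 among them, mostly through 1 wt/wt oocyte, such as 9 counts of the GABA-A subunit Gabrr1 in wt4. A further 8 were scattered in both groups, Kcnma1, the large-conductance calcium-activated channel, among them with 6 counts in the f/f oocyte alone of the controls and 0, 3, 4, 25 and 0 in mutants (log2 fold change 1.99, SE 1.22, adjusted p = 0.236). Scn3a, Gria4, Cacna2d1 and the leak channel gene Kcnk1 were scattered in controls and detected in mutants, and Scn8a, Kcna1, Kcng4 and Gabrr3 were detected in controls and scattered in mutants. Of these 8, Scn3a and Scn8a alone were called.

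Calcium channels followed no common direction. Cacna1d, an L-type pore subunit, had 22, 7, 5, 3 and 128 counts in controls and 92, 25, 48, 208 and 19 in mutants (log2 fold change 1.36, SE 0.72, adjusted p = 0.17), and with the wt/wt oocytes alone as controls it was called higher. Its exons overlap Chdh on the opposite strand by 589 bases. Cacna1h, the T-type pore subunit, had 1, 9, 23, 36 and 31 against 16, 12, 11, 16 and 3 (-0.66, SE 0.71, adjusted p = 0.52). The groups overlapped for both. Cacna2d3, an extracellular auxiliary subunit, had 9, 35, 21, 14 and 54 counts against 5, 1, 13, 25 and 8, or 4.97 to 15.1 CPM against 0.608 to 4.62 CPM, so that every mutant lay below every control, but the difference missed the threshold (-1.53, SE 0.58, adjusted p = 0.0601). Cacna2d1, a subunit of the same kind, had 1, 0, 0, 0 and 8 against 2, 3, 9, 19 and 4 (1.97, SE 0.99, adjusted p = 0.149). Without the f/f oocyte, Cacna2d1 was silent in controls and detected in mutants, and it and Kcnma1 were called higher as well. Both passed the filter on low counts in that fit through their mutant counts, so these calls support no direction.

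Neuronal genes outside the channel families were mostly silent too. Of 26 other genes known for RE1 elements, 20 were silent in controls (56.6% of all genes were) and 18 were silent in all 10 oocytes (48.9% of all genes). None of those silent in controls was detected in mutants, where 2.44% of all genes silent in controls were. The secretory granule genes Scg2 and Scg3 and the tubulin gene Tubb3 passed the filter on low counts, Scg2 and Scg3 mainly through their mutant counts, and were called higher. These 3 were the only genes of the list tested, and 14.7% of all genes tested were called higher. Scg2 had 0, 3, 5, 3 and 3 counts in controls and 5, 3, 42, 324 and 11 in mutants (log2 fold change 3.77, SE 0.92, adjusted p = 0.00816), with most of the mutant mean from D4. Scg3 had 2, 3, 4, 4 and 6 against 37, 5, 19, 64 and 6 (2.54, SE 0.67, adjusted p = 0.0122). Tubb3 was already abundant in controls, at 658 ± 346 CPM against 1725 ± 734 CPM in mutants (1.39, SE 0.41, adjusted p = 0.0216). The f/f oocyte, at 1260 CPM, lay within the mutant range of 868 to 2680 under TMM, and the wt/wt oocytes, at 427 to 582, below it. By library totals the f/f oocyte, at 823 CPM, lay above the wt/wt oocytes (562 to 783) and below every mutant (826 to 2180).

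The machinery that represses such genes was itself measured. Of 13 genes of REST and the CoREST complex, 12 were tested, 1 was called higher and 2 lower, Kdm1a among the latter, where 14.7% of all genes tested were called higher and 11.2% lower. REST itself (Rest) had 5, 8, 0, 0 and 23 counts in controls and 6, 2, 13, 45 and 16 in mutants (1.05, SE 0.88, adjusted p = 0.396). Rcor2 and Rcor3 were detected in both groups, whereas Rcor1 had 2 counts or fewer in every oocyte. Phf21a, a CoREST complex subunit that binds an unmethylated lysine of histone H3, had 1, 0, 0, 3 and 3 counts against 8, 6, 8, 16 and 9 (2.67, SE 0.89, adjusted p = 0.0354), and passed the filter through its mutant counts. Zmym2, a zinc finger partner of the complex, had 54, 30, 89, 36 and 88 against 22, 21, 22, 26 and 9 (-1.50, SE 0.49, adjusted p = 0.033), every mutant having fewer counts than every control.

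Ion channels of other families and the proteins that traffic or anchor channels were compared in the same fit. Of 29 other channel genes, 20 were silent in controls, where 56.6% of all genes were, 10 were tested, 1 was called higher and 2 lower. Trpm7 had 9, 13, 3, 0 and 38 counts in controls and 74, 27, 88, 887 and 37 in mutants (log2 fold change 3.54, SE 0.78, adjusted p = 0.00471). The inositol trisphosphate receptor Itpr1, through which the egg releases stored calcium, fell from 146 ± 27.7 to 61.4 ± 18.9 CPM (-1.25, SE 0.33, adjusted p = 0.0135), and the chloride transporter gene Clcn4-2 fell from 4.35 ± 4.28 to 0.657 ± 0.441 CPM (-2.54, SE 0.88, adjusted p = 0.0422). Clcn4-2 passed the filter on low counts mainly through its control counts, 5, 2, 11, 26 and 9 against 1, 1, 3, 7 and 0. Of 16 partner genes, 8 were tested, 3 were called higher and 2 lower. Over all genes tested the shares called were 14.7% higher and 11.2% lower, and no more is read from counts of this size. The membrane fusion ATPase Nsf rose from 12.7 ± 10.5 to 303 ± 235 CPM (4.58, SE 0.68, adjusted p = 0.000548) and the NMDA receptor-associated protein Grina from 1.5 ± 1.38 to 10.8 ± 8.76 CPM (2.79, SE 0.79, adjusted p = 0.0176). Grina passed the filter mainly through its mutant counts, 46, 18, 11, 70 and 7 against 1, 6, 8, 0 and 5 in controls. The autophagy protein gene Gabarapl2, of the family that binds GABA-A receptors, fell from 31.5 ± 19.0 to 5.56 ± 1.07 CPM (-2.47, SE 0.53, adjusted p = 0.00426).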

How the data were processed

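RNA of single oocytes was amplified from lysate and sequenced as 14 libraries. The deposited values are counts per gene, which the authors made by mapping reads to mm10 with TopHat2 (2.0.6), keeping unique alignments, and counting with HTSeq (0.5.3p9 per the labels) on RefSeq genes. Libraries that share an oocyte name (4 names; 1 library of each is suffixed DNA) were summed, giving 10 oocytes. Their Spearman correlation, 0.909 to 0.953, exceeded that with any other oocyte, 0.878 to 0.899. Oocytes came to 1375187 to 6928548 counts.

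Genes with a count (15432) were cut to the top 60% by total (9198). Genotype was tested in 5 control against 5 mutant oocytes with edgeR 4.0.16 (TMM, quasi-likelihood test, R 4.3.3) and Benjamini-Hochberg adjustment over all genes kept. The test was also run on counts simulated with a common dispersion, with changes placed only among the more abundant genes. Nothing is drawn from that run for genes of few counts. Silence and detection at 3 counts carried no test. Alternatives were DESeq2 1.42.0, other scalings, filters, depths, controls and library handling, and leaving out each oocyte. Symbols were matched to GENCODE vM21 (GRCm38), which gave 98.5% of genes a position, 865 through older symbols.

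Named genes were the members called, those that switched, the 5 of highest level per kb, Scn2a1, Grin1 and Gria2, Kdm1a, and up to 3 called genes of each other list. Further members and list genes were named after their values were seen. Members and lists were chosen with earlier results of these data known.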

Additional observations from a re-analysis of the deposited data

Results flagged for a closer look

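In groups of 4 or 5 oocytes, a value was picked out when its gap to the nearest oocyte, over the group's range, exceeded 0.829 or 0.71. Of 57 sets examined 6 had such an oocyte, where about 2.85 (1 in 20) arise by chance. Kcnn2 in wt3 was 3.44 CPM, below the next wt/wt oocyte at 7.73 (ratio 0.847). Among controls, Kcnn2 in the f/f oocyte C3 was 22.4 CPM, above the next at 8.5 (0.733), and with wt/wt oocytes alone as controls Kcnn2 was still called higher in mutants. Scn8a in mutant D7 was 2.98 CPM, above the next at 1.09 (0.796). Kcnip4 in wt4 was 21.2 CPM, above the next at 4.74, both among wt/wt oocytes and among all controls (0.867 each). Mutant D4 had 36 members above 3 counts, where the next mutants had 23 (0.867), and without D4 the members silent in controls and detected in mutants numbered 3 in place of 5.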

How the results depend on the processing

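The number of members called, 6, was 3 with edgeR's filterByExpr (Kcnh1, Kcnn2 and Cacna2d3, with fewer genes tested), and ranged from 3 (without D1) to 9 (without C3) when each oocyte was left out. It was 4 to 9 under the other scalings, tools, filters and depths. With every library as its own sample and the label's replicate number as a block, 3 members were called (Kcnn2, Scn3a and Cacna1d). Numbers shared between wt/wt and mutant libraries did not pair them (correlations 0.07, 0.10 and -0.09). The 5 members silent in controls and detected in mutants were 3 at 1 CPM, 3 with thinned counts, and 3 to 6 with each oocyte left out. With 1 count marking detection they were also 5, but of the genes named Kcnip2 and Kcnk7 alone remained, with Grin2b, Kcna2 and Kcne2. The 3 of the mirror count were 1 at 1 CPM, 1 with thinned counts, and 1 (without wt1 or wt3) to 5 (without D4). Members silent in controls stayed between 100 and 134 of 168. Kcnn2 and Scn3a were called under each of the 19 and 18 alternatives that tested them (log2 fold change 2.31 to 3.17 and 2.67 to 4.46), and Cacnb4 lost its call under 13 of 18 (1.85 to 2.84, adjusted p 0.0102 to 0.12). Kcnh1 lost it under 2 of 19, and Kcnh2 and Scn8a under 3 of 18 each. Kcnip4 lay between -0.86 and 0.32 with each oocyte left out, changing sign without wt4. The causes were not tested. Depth limited all members near 3 counts.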
